A study of Drosophila melanogaster with 36 samples.

Results

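In Drosophila wing discs from lines selected for opposite wing shapes, 120 probe sets differed between high and low lines in the same direction in a Massachusetts (MA) and a California (CA) population. They were 120 of 9385 probe sets tested, out of 18769 on the array. Each probe set, a group of array features that reads 1 transcript or a few, was summarised per line as the mean log2 signal of 3 arrays, and the low line was subtracted from the high line of its pair. A probe set belonged to the group if its mean signal over the 36 arrays, averaged as log2, reached the level of 259.57 signal units, if the high-minus-low difference had the same sign in all 5 MA pairs, if the MA mean was at least 0.4 in size and if the CA difference was at least 0.4 with the same sign. The rule leaves out 15 named genes and 3 gene families, which removed 14 probe sets. Among the named genes are the hemocyte (blood cell) genes PPO1, PPO2, Pxn, He, Hml and srp and the tracheal genes Gasp and serp. Since these differences chose the members, the MA and CA differences below are a description and carry no p-value. The members comprised 55 probe sets that were higher in high lines and 65 that were lower.

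The high lines were founder H, the reselected lines A1, B1, C1 and D1, and the CA high line, and their low counterparts were L, A2, B2, C2, D2 and the CA low line. H and L came from an MA population by 20 generations of divergent selection for wing shape and were then made isogenic. H and L were crossed into 4 hybrid populations that were mixed for 34 generations, selected in both directions for 25 and inbred for 10, which gave the A to D pairs. The 5 MA pairs therefore share their founders' alleles, whereas the CA lines were selected from another population and are 1 high and 1 low line. The labels name no transgene or mutation. Larvae were kept at 20 °C and dissected at the third instar, a median of 6.2 h before pupariation, with 100 discs per tube.

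The wing disc is an epithelial sac that is patterned during larval life and everts at metamorphosis to form the adult wing and notum. Its final shape is laid down by growth, vein placement and cell rearrangement under Hedgehog, Dpp, Wingless, Notch and EGFR signals. Selection on standing variation can favour shared or different alleles in separate populations, and a transcript level can follow the allele at its own gene, a linked gene or a distant regulator.

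All 36 arrays had been scaled to 1 common level, with array medians between 243.2 and 433.5 signal units. Wing disc marker genes were abundant, and their summed signal lay between 137530 and 165550 in MA high lines against 138060 to 145950 in MA low lines, and was 146170 in the CA high line against 154230 in the CA low line. The summed signal of 9 hemocyte (blood cell) markers was 4538.8 to 6847.6 in MA high lines against 8780.6 to 14306 in MA low lines, and 8995.5 in CA high against 15214 in CA low. Of these 9 markers, 8 were lower in the high lines of MA and 8 in CA, and none of the 9 was at 0. Salivary gland markers summed to 1818.9 to 3516.7 in MA high lines against 1805.1 to 6426.6 in MA low lines, and to 1418.9 in CA high against 2965.3 in CA low, with 6 of 6 lower in CA. Of these 6, 3 had a mean log2 signal under the level set for testing. Fat body markers summed to 870.9 to 5553 in MA high lines against 746.53 to 1358.4 in MA low lines, and to 1077.5 in CA high against 2761.9 in CA low, with 3 of 4 lower in CA and 0 of 4 in MA. Of these 4, 3 were under that level. The part of these markers in the members' differences was not tested, and in these bulk discs fewer cells of a type and less RNA per cell cannot be told apart. In all 6 pairs the high line's arrays had lower numbers in their titles than the low line's, so an effect of that order and the direction of selection cannot be told apart. Whether a line's 3 arrays stem from separate cultures is not stated, so p-values reflect the spread among these arrays, which may be technical.

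Before the names were left out, 134 probe sets met the rule, which was 1.43% of those tested. In the gene lists, 5 of 13 tested hemocyte genes and 2 of 9 tested tracheal genes met it and were left out by name. The opposite pattern, with the same sizes and CA turned the other way, was met by 119, or 1.27%. The MA criteria alone were met by 599 probe sets (6.38%), and 346 of them had a CA difference under 0.4. A CA difference of at least 0.4 was found for 19.7% of all tested probe sets, higher in high lines for 8.14% and lower for 11.6%. Among the 307 (3.27% of those tested) that were higher in MA high lines, 62 were higher in CA by at least 0.4 and 71 were lower by that much. Among the 292 (3.11%) that were lower in MA high lines, 72 were lower in CA and 48 were higher. Same and opposite signs in CA thus made up 22.4% and 19.9% of the probe sets that met the MA criteria, and no test was made of their balance.

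**Figure D1:**
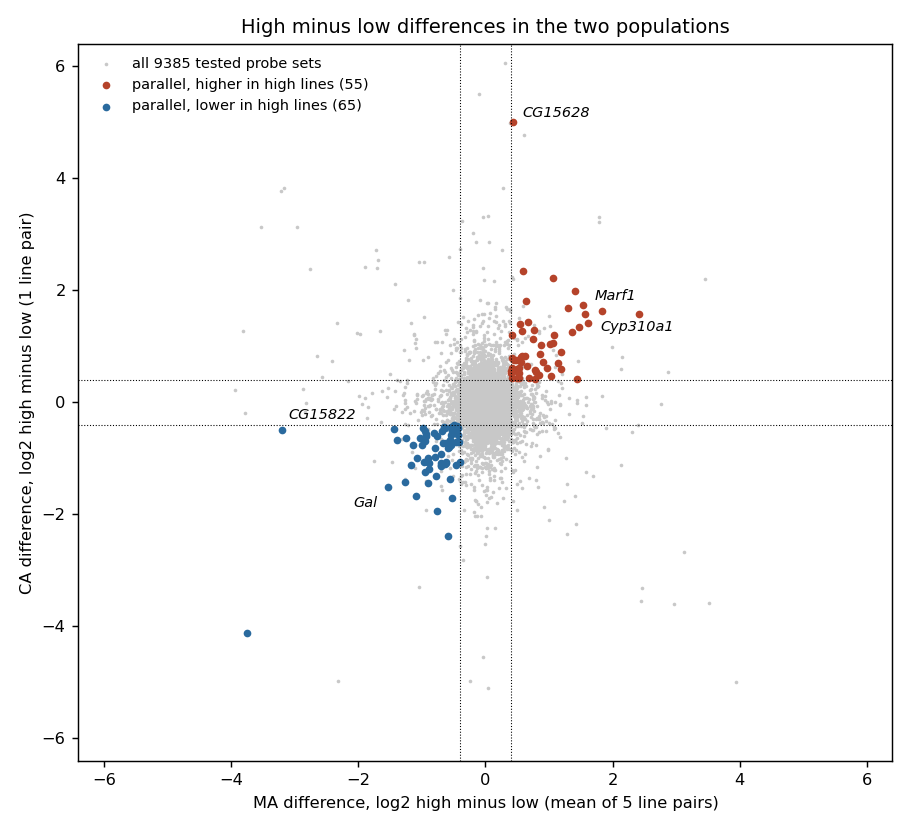
High-minus-low log2 signal in MA (horizontal axis, mean of 5 line pairs) against CA (vertical axis, 1 line pair) for the 9385 tested probe sets in grey, with dotted lines at 0.4 in size. The 55 members higher in high lines (red) fill the upper right corner and the 65 lower ones (blue) the lower left corner, while grey points beyond the lines in the other corners include the 119 of opposite sign.

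The plot of MA against CA shows the members' sizes in the 2 populations. The rule cut both at 0.4 with the same sign, so medians of like size follow in part from it. Members that were higher in high lines had a median difference of 0.75 in MA and 0.81 in CA (1 log2 unit is 2-fold). Members that were lower had medians of -0.70 in MA and -0.77 in CA, beside 0.0049 in MA and -0.03 in CA over all tested probe sets. The CA difference lay inside the range of the 5 MA pairs for 85 members, was larger than every MA pair for 25 and smaller than every MA pair for 10. MA mean and CA difference were within 0.1 of each other for 27 members. Every MA pair reached 0.4 in size for 37 members, and the weakest pair was under 0.1 for 23. The weakest MA pair was B for 36 members, D for 28, A for 24, C for 23 and the founder pair for 9.

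The largest MA difference in each direction belonged to a probe set without a gene symbol in the annotation used. Probe set 1623281_s_at read 811.9 to 26505.4 (median 1004) on the 15 MA high arrays against 16915.5 to 33691.7 (median 25607.2) on the 15 MA low arrays. In CA it read 536.4, 617.6 and 745.1 in the high line against 11165.2, 10793.3 and 10762.1 in the low line. All high lines were low except B1, whose pair differed by only -0.14, against -4.32 to -4.96 in the other MA pairs. In CA the difference was -4.12 ± 0.13 (SE from limma, 3 arrays per line). Probe set 1634250_at ran the other way, with 4361.2 to 7604.6 on MA high arrays against 563.5 to 1858.2 on MA low arrays, and with 4680.9, 4515 and 5224.8 in CA high against 1303.3, 1916 and 1649.7 in CA low. Its groups did not overlap on any array, with differences of 2.42 ± 0.42 (SD, n = 5 pairs) in MA and 1.58 ± 0.22 (SE) in CA. The SE of a CA difference, here and below, came from limma's fit to all 36 arrays. It thus pools the spread within all lines and is not that of the CA arrays alone. In all, 19 members had no symbol, 12 of them higher and 7 lower, and the other 101 belonged to 98 genes.

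Marf1, an RNA-binding regulator of oogenesis that brings the CCR4-NOT deadenylase to its target mRNAs, was among the genes with the largest differences. It read 433.6 to 2208.6 (median 1573.8) on MA high arrays against 325.7 to 1269.2 (median 441.4) on MA low arrays. In CA it read 954.1, 781 and 622.5 in the high line against 201, 270.2 and 315.9 in the low line. Each high line mean lay above that of its own low line, but arrays overlapped between MA pairs, because line A2 was high among low lines. Arrays also overlapped within pair D, where 1 D1 array at 433.6 lay below D2 arrays at 441.4 and 539. The difference was 1.57 ± 0.57 (SD, n = 5 pairs) in MA and 1.59 ± 0.31 (SE) in CA, about 2.96-fold and 3.0-fold.

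Nubpl, whose human counterpart delivers iron-sulfur clusters to respiratory complex I, is separated from Marf1 by 2 genes on chromosome arm 2L. It read 2049.9 to 3178.4 (median 2559.9) on MA high arrays against 922.4 to 1470.8 (median 1244.9) on MA low arrays, with no overlap. In CA it read 746.7, 560.1 and 554.6 in the high line against 310.9, 301.3 and 273.3 in the low line, again without overlap, although the CA high line lay below every MA low array. The difference was 1.07 ± 0.18 (SD, n = 5) in MA and 1.06 ± 0.13 (SE) in CA. Of the genes between Nubpl and Marf1, Tif-IA differed by -0.04 in MA and -0.26 in CA, and RpL21 was not tested. A 2nd and brighter Nubpl probe set (mean log2 signal 13.33) was lower in the high line of all 5 MA pairs. It differed by -0.20 in MA and 0.23 in CA, so the pattern held for 1 of the gene's 2 tested probe sets.

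Cyp310a1, a cytochrome P450 gene, read 682.1 to 3363.1 (median 1532) on MA high arrays against 284.3 to 791.2 (median 571.5) on MA low arrays. In CA the 3 high arrays read 624.5, 656.4 and 1350.8, against 311.1, 269.2 and 343.6 in the low line. The MA groups overlapped only at their edges, the 12 line means did not overlap, and the CA arrays stood apart. The difference was 1.61 ± 0.53 (SD, n = 5) in MA and 1.42 ± 0.37 (SE) in CA. Of 29 P450 genes tested, limma called 1 higher (background 4.92%) and 1 lower (4.76%) in MA, and 3 higher (7.97%) and 0 lower (9.05%) in CA, where 2 were lower at an unadjusted p under 0.05. Their median difference was -0.02 in MA and 0.04 in CA. The gene called lower in MA, Cyp6a17, differed by -3.53 there and was called higher in CA, by 3.12.

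**Figure D2:**
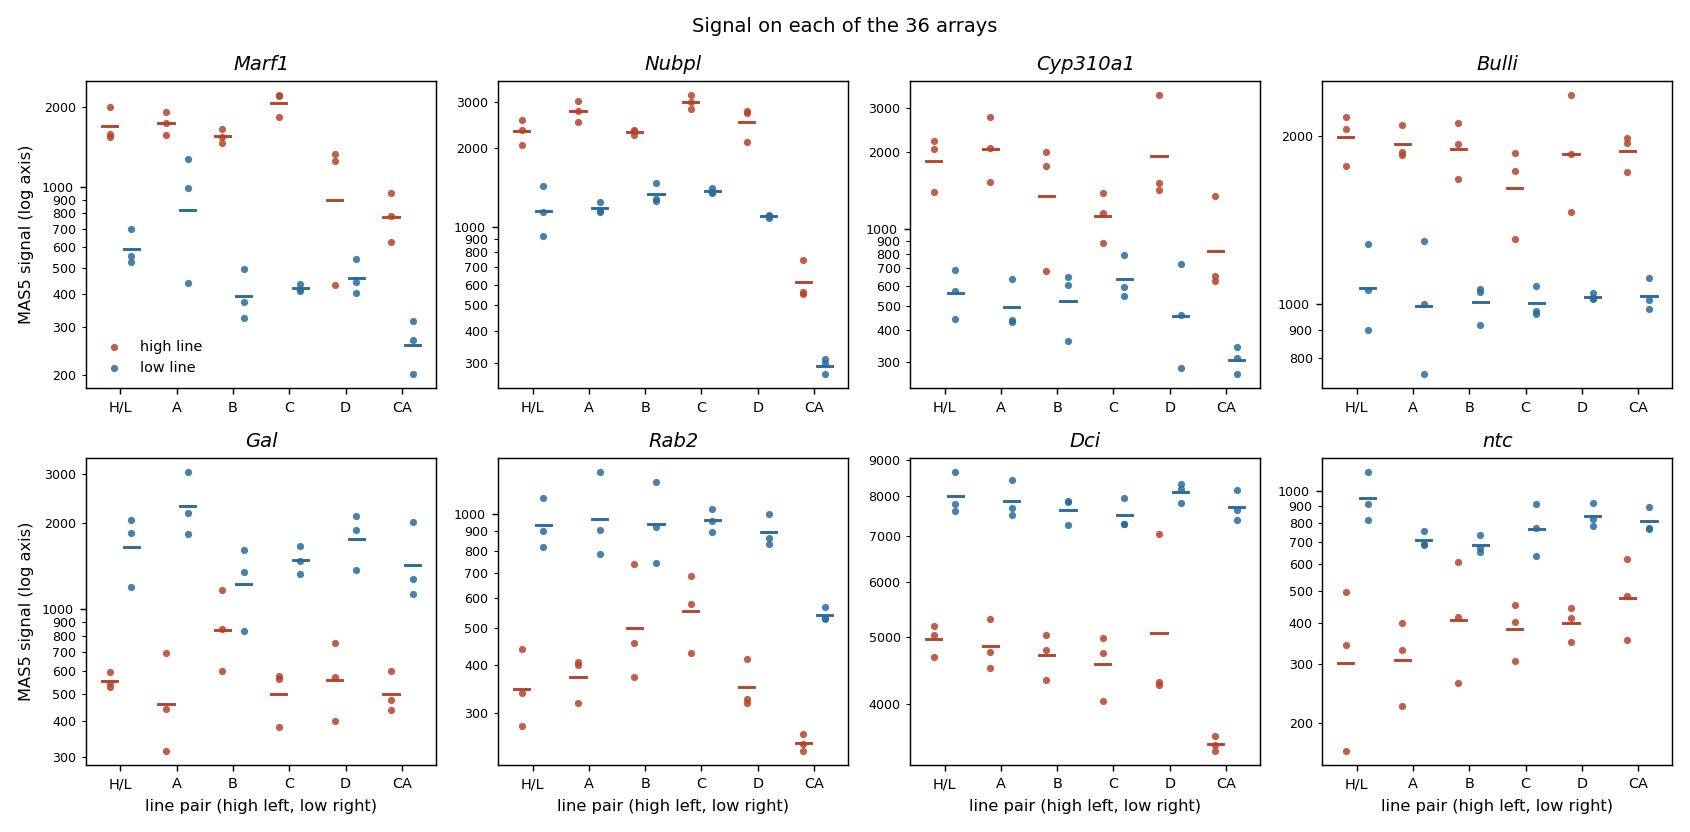
MAS5 signal on each array (log axis) for 8 member genes, with the high line (red) left of the low line (blue) in each of 6 line pairs and a bar at the geometric mean of 3 arrays. By line mean, Marf1, Nubpl, Cyp310a1 and Bulli lie higher in every high line than in its partner and Gal, Rab2, Dci and ntc lower. All but ntc also sit lower in each CA line than in the MA founder of the same direction, by little in Gal, Bulli and the CA low line of Dci.

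Many members were sensitive to single arrays, since 60 of the 120 left the group when at least 1 of the 36 arrays was left out, and 47 stayed under all 49 alternatives tried. The CA difference of 20 members moved by over 1.5 times when 1 array was left out.

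Grouped by known role, an ordering made after the values were seen and not tested, 11 genes coded for metabolic enzymes, 3 of them higher and 8 lower in high lines. The role groups given here do not hold every member with such a role. Gal, a beta-galactosidase, read 314.7 to 1166.6 (median 574.4) on MA high arrays against 835.7 to 3046.5 (median 1668.6) on MA low arrays, and 600.7, 476.9 and 438.6 in CA high against 2023.7, 1267.7 and 1129.9 in CA low. All 6 high line means lay below all 6 low ones. The differences were -1.53 ± 0.64 (SD, n = 5) in MA and -1.51 ± 0.30 (SE) in CA, with pair B the smallest at -0.54. Dci, an enzyme of fatty acid oxidation, read 4050 to 7054.1 on MA high arrays against 7250.6 to 8665 on MA low arrays, and 3601.3, 3429.1 and 3492 in CA high against 8139.3, 7637.1 and 7383.7 in CA low. No array overlapped, and the MA pairs were nearly identical, from -0.68 to -0.71, while CA differed by -1.14 ± 0.12. Had2, also placed among the metabolic enzymes, differed by -0.77 ± 0.28 in MA and -1.94 ± 0.31 in CA. Glutamine synthetase 1 (Gs1) was 1.85-fold lower in MA and 2.13-fold lower in CA, and ornithine aminotransferase (Oat) 1.53-fold and 2.13-fold lower. Fructose-1,6-bisphosphatase (fbp), a gluconeogenic enzyme just inside the MA threshold at -0.40, differed by -1.07 ± 0.10 in CA and left the group under 17 alternatives. The summed signals of the salivary gland and fat body markers given above, many of them dim, were also lower in the CA high line than in the CA low line. Of 5 salivary gland and 4 fat body genes tested in wider lists, limma called 0 and 1 lower in CA (background 9.05%). The part of these markers in the CA values of the enzymes was not tested. Among the 3 higher enzymes, Pu, the GTP cyclohydrolase that starts pteridine synthesis, differed by 0.75 ± 0.41 in MA and 1.14 ± 0.24 in CA, and Inos, which makes inositol phosphate from glucose phosphate, by 0.54 ± 0.39 and 1.40 ± 0.29.

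Of 5 genes that act on RNA or translation, 4 were higher and 1 lower. Mfap1, a spliceosome protein, read 2444.9 to 4192.2 on MA high arrays against 1690.5 to 2468.3 on MA low arrays, and 4158.9, 3456.5 and 4408.7 in CA high against 1895.5, 1849.5 and 2117.2 in CA low. Only the edges of the MA groups met, and the differences were 0.87 ± 0.29 in MA and 1.03 ± 0.10 in CA. The initiation factor relative kra, which left the group under 12 of the alternatives tried, differed by 0.41 and 0.55, and the translational regulator orb2, a CPEB protein, by 0.43 and 0.56, and left under 11. Elp2, an Elongator subunit, was lower by 0.54 in MA and 0.77 in CA, with pair A at only -0.02. In the list of 26 tested deadenylation and mRNA decay genes, limma called Marf1, smg and brat higher and 0 lower in MA, where 2 were lower at an unadjusted p under 0.05 (background 4.92% higher and 4.76% lower). In CA 1 was called higher (Marf1) and 1 lower (PAN3), beside 7.97% and 9.05%, and the list medians were 0.04 in MA and -0.004 in CA. The translational repressor smg differed by 0.72 in MA and -0.11 in CA, and brat by 0.49 and 0.08.

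The chromatin gene mod(mdg4), which codes for many BTB-domain proteins through trans-splicing, had 3 member probe sets, 1 higher and 2 lower. The higher one read 2096.8 to 2866.2 on MA high arrays against 942.7 to 1580.2 on MA low arrays, and 2635.6, 2395.9 and 2683 in CA high against 1594.2, 1500.6 and 1551.9 in CA low. No array overlapped, and the difference was 0.91 ± 0.12 in MA and 0.73 ± 0.10 in CA. The lower ones differed by -0.62 in MA and -1.06 in CA, and by -0.50 and -0.45. Another 19 tested probe sets of this gene were not members, and their signs in MA and CA were mixed. The one with the largest MA difference, 2.39, was at -0.41 ± 0.61 (SE) in CA. Among the others were pairs of MA and CA values of 0.92 and -0.26, 0.12 and -0.62, 0.49 and 0.27, and 0.31 and 0.12. The TBP-related factor Trf was higher (0.48 in MA, 0.76 in CA, with pair C at 0.01), and 1 dim probe set of the corepressor gene sbb was lower (-0.76 and -0.61). Its CA value rested on single arrays, with 166.1, 189 and 1073.3 in CA high against 664, 517.5 and 346.5 in CA low. It ranged from -1.47 to -0.13 when 1 array was left out. Brighter sbb probe sets differed by -0.07 and -0.04 in MA and by -0.24 and 0.52 in CA.

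Signalling members were 2 higher and 4 lower. Mkp3, the phosphatase that removes activating phosphates from ERK downstream of EGFR, read 897.6 to 1534.7 on MA high arrays against 393 to 807.7 on MA low arrays, without overlap. In CA it read 1554.9, 1580.6 and 1907.1 in the high line against 999.5, 1114.9 and 1586.6 in the low line, where 1 low array lay among the high ones. The difference was 1.04 ± 0.12 in MA and 0.47 ± 0.16 in CA, and CA was smaller than every MA pair. A 2nd and brighter Mkp3 probe set differed by -0.14 in MA and -0.26 in CA. The ubiquitin ligase sina was higher by 0.58 in MA and 0.82 in CA. The lower genes included alph, a PP2C phosphatase that restrains Ras signalling (-0.90 and -1.44, with CA at -0.85 without replicate 1 of the CA high line), RapGAP1, which inactivates Rap GTPases (-0.91 and -1.07, with CA at -0.63 without replicate 1 of the CA high line), Epac, a Rap exchange factor (-0.70 and -0.92, with pair C at -0.01), and grnd, a receptor for the TNF ligand Eiger (-0.93 and -0.60). Of 16 tested EGFR pathway genes, limma called Cbl higher in MA (background 4.92%) and S lower in CA (background 9.05%), with list medians of 0.02 and -0.02. No member belonged to the lists of Wingless, Hedgehog, Dpp, Notch, vein positioning or cell cycle genes, which held 14, 16, 24, 20, 19 and 21 tested genes. Members before the names were left out made up 1.43% of all tested probe sets, so a count of 0 in lists of this size says little. Below the size of 0.4, nkd of the Wingless list (-0.35 in MA, -0.30 in CA) and wit of the Dpp list (-0.17 and -0.37) were called lower in both populations by limma.

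The 4 genes grouped under nuclear envelope, cytoskeleton or vesicle traffic were lower. This group leaves out Bulli, which was higher, so its shared direction depends on how genes were placed. Rab2, a small GTPase of secretory traffic, read 276.7 to 737.6 on MA high arrays against 741.3 to 1291.7 on MA low arrays, and 264.1, 247.8 and 238.4 in CA high against 569.1, 533.3 and 528.7 in CA low. The groups were apart within each population, with differences of -1.17 ± 0.30 in MA and -1.12 ± 0.23 in CA, but the CA low arrays lay below all MA low arrays. Both sides of the complex that links nucleus and cytoskeleton were members, the SUN-domain gene koi (-0.95 ± 0.45 in MA, -1.24 ± 0.30 in CA) and the KASH-domain gene Msp300 (-0.65 ± 0.28 and -0.44 ± 0.57). The koi difference fell on 1 dim probe set, with MA high arrays between 177.6 and 339.3, while a brighter koi probe set differed by 0.04 in MA and -0.04 in CA. The 4 other tested Msp300 probe sets differed by -0.33, -0.14, 0.16 and -0.04 in MA and by 0.69, 0.33, -0.21 and -0.15 in CA, and the CA difference of the member ranged from -0.79 to -0.24 when 1 array was left out. Arpc3B, an Arp2/3 subunit, differed by -0.63 and -0.73.

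Of 4 channel or transporter genes, 1 was higher and 3 lower. bib, an aquaporin relative known as a neurogenic gene, read 3267.3 to 8752.5 on MA high arrays against 9246.9 to 11526.3 on MA low arrays, and 4861.8, 3782.7 and 4560.7 in CA high against 7808.5, 9239.3 and 9166 in CA low. The groups were apart in both populations and the 12 line means did not overlap, with differences of -1.08 ± 0.40 in MA and -0.99 ± 0.13 in CA. The trehalose transporter Tret1-1 was higher by 0.42 and 0.62, but by 0.28 in CA without replicate 1 of the CA low line. The acetylcholine receptor subunit nAChRbeta3 differed by -0.95 and -0.69, and by -0.39 in CA without replicate 1 of the CA high line. The 3 genes placed under secreted proteins, which need not be all such members, were higher. slf, needed for the layering of cuticle, differed by 1.01 ± 0.35 in MA and 1.05 ± 0.19 in CA, ana, a glial glycoprotein that holds neuroblasts quiescent, by 0.85 and 0.50, and the odorant-binding protein gene Obp83g by 0.45 and 0.76. Of genes in protein turnover, the protease inhibitor cer (0.49 and 0.43) and the VCP-interacting Svip (0.57 and 1.27) were higher. The serpin Spn42Da (-0.54 and -0.58) and ntc, an F-box gene of caspase control in spermatids (-1.13 and -0.77), were lower. A brighter Spn42Da probe set differed by 0.03 in MA and -0.08 in CA.

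**Figure D3:**
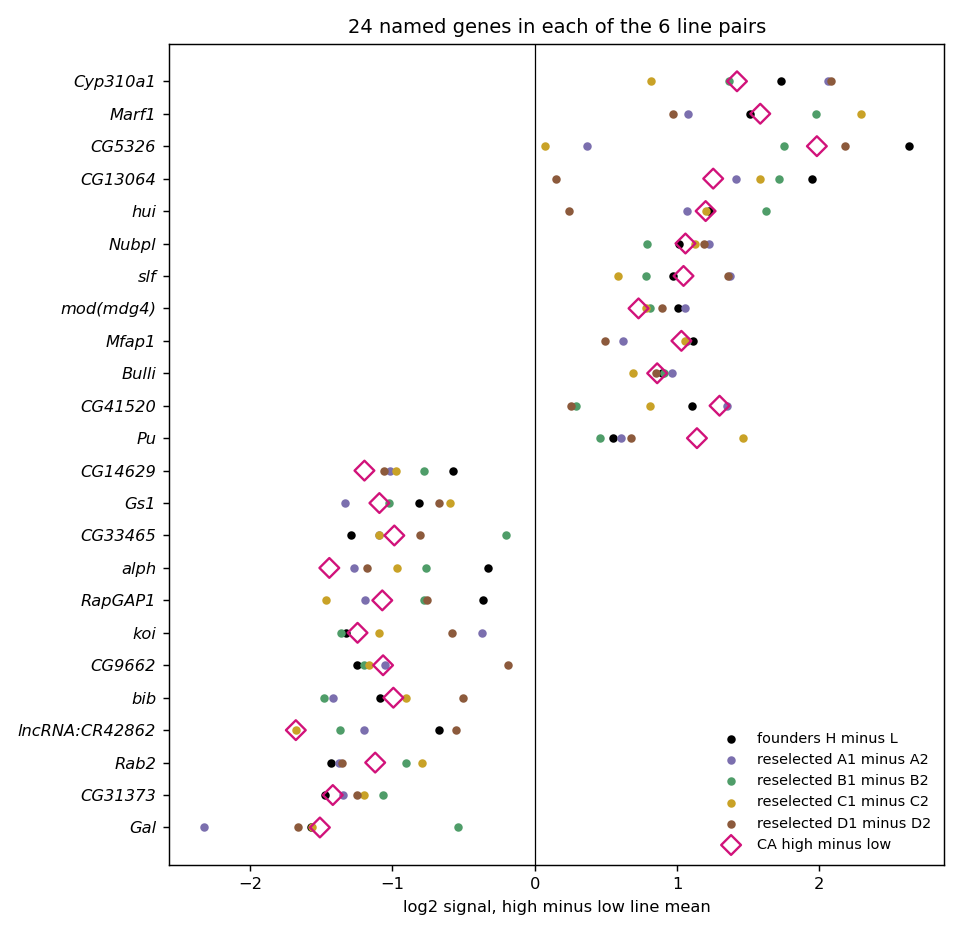
High-minus-low log2 signal of 24 genes, 12 in each direction, in the founder pair (black), the reselected pairs A to D (coloured points) and the CA pair (open diamonds). The CA diamond of Marf1 at 1.59, Nubpl at 1.06 and Gal at -1.51 falls among the MA points, that of Bulli at 0.86 too, whereas CG5326 ranges from 0.08 in pair C to 2.63 in the founders.

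Some members owed their place to 1 population more than the other. CG15628 read 3486.1 to 6789.7 on MA high arrays against 2891.6 to 5478 on MA low arrays, which overlapped widely. In CA it read 1426.7, 1354.6 and 1839.7 in the high line against 16.6, 188.8 and 34.3 in the low line. The difference was 0.43 ± 0.32 in MA, with pair B at 0.0058, and 5.0 ± 0.42 in CA. CG15822 was the reverse, with 48.8 to 1416.1 on MA high arrays against 1717.3 to 3361.8 on MA low arrays, and 1729.3, 1551.5 and 1838.3 in CA high against 2422.2, 2356 and 2387.7 in CA low. Its difference was -3.19 ± 1.20 in MA and -0.49 ± 0.34 in CA, close to the CA threshold. CG42598 (0.58 in MA, 2.35 in CA) and CG7906 (-0.59 and -2.38) were also larger in CA. CG31373 had a difference of -1.27 ± 0.15 in MA and -1.42 ± 0.71 in CA (-0.76 without replicate 2 of the CA high line), but its mean signal was just above the filter and it left the group under 17 of the alternatives tried. Its CA arrays were only just apart, with 238.2, 93.2 and 557 in the high line against 581, 624 and 651.4 in the low line. At the thresholds, fbp was just inside in MA (0.4024 in size) and B-H1 just outside (0.3993), and Naxd was just inside in CA (0.4132) and CG14572 just outside (0.3968).

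The 6 high line means did not overlap the 6 low ones for 49 members, 20 higher and 29 lower, beside 2.23% of all tested probe sets, 0.927% higher and 1.3% lower. The 3 CA high arrays did not overlap the 3 CA low arrays for 102 members, beside 34.6% of all tested, and all 36 arrays were apart by direction for 8, beside 0.181%. The rule used these contrasts, so nothing is read from the counts. The 8 were Bulli, CG31548, 1 mod(mdg4) probe set and 2 unnamed probe sets among the higher members, and Dci, CG7102 and ntc among the lower ones. Bulli read 1306.3 to 2367.4 on MA high arrays against 749.4 to 1299.2 on MA low arrays, and 1985.4, 1946.2 and 1723.6 in CA high against 1018, 1115.1 and 979.1 in CA low, with nearly equal differences of 0.862 ± 0.10 and 0.861 ± 0.17. Members were dimmer than the rest, with a median log2 signal of 9.99 against 11.51 over all tested, and varied more within a line, with a median SD of 0.28 against 0.16. For 39 members at least 1 line mean lay under the filter level of 259.57 signal units.

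The mean level of the CA lines relative to the MA founders was not itself used by the rule and was tested. It is not free of the rule, since where only 1 line shifts, its pair's level and its pair's difference move together. The mean of both CA lines was set against the mean of H and L, and limma called 45 of 120 members (37.5%, background 27%), 14 higher and 31 lower in CA. The median over members was -0.16, beside -0.02 over all tested probe sets. Of members higher in high lines, 8 were called higher and 21 lower in CA, and of members lower in high lines 6 and 10. For 43 of the 45, each CA line lay on the same side of the founder of its own direction, and for 8, CG15822, fbp and Dci among them, 1 CA line lay within 0.1 of that founder. This split and the excess over background depended on the scaling between arrays. When arrays were centred on their medians, the median of all tested probe sets moved to 0.18. Then 24 members were called higher and 23 lower, against 14 and 31. Over all tested probe sets 3259 were called higher and 386 lower, against 1255 and 1279. In total 47 of 120 members and 3645 of 9385 tested probe sets were called under that scaling, which are nearly equal shares.

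CG15628 had the largest shortfall, with a CA minus founder level of -3.91 ± 0.29 (SE, adjusted p = 9.58e-12 by limma). Its CA low line stood at 5.57 against 11.65 in L, and its CA high line at 10.58 against 12.31 in H (log2). The value thus lies mostly in the CA low line and partly restates the CA difference that the rule used. Nubpl followed among named genes at -1.93 ± 0.09 (adjusted p = 1.72e-16 by limma), with a mean signal of 457.82 over CA lines against 1739.7 over founders. CG7906 (-1.61, adjusted p = 0.000507), Marf1 (-1.16, adjusted p = 0.000158), Pu (-1.08, adjusted p = 1.29e-05) and Cyp310a1 (-1.02, adjusted p = 0.00411) also fell in CA lines by limma. For CG7906 the fall lay mostly in the CA high line (6.144 against 8.857 in H), beside 8.525 in the CA low line against 9.029 in L. It too partly restates the CA difference. The member probe sets of Marf1 and Nubpl, close neighbours on the chromosome, were thus both lower in CA lines than in founders. Both were higher in high lines within each population, unlike the brighter Nubpl probe set in MA. CG15822 was also called, but its CA low line was level with L (11.22 against 11.16 on the log2 scale) and only the CA high line stood above H (10.73 against 7.05), so the value restates the low level of H that the rule used. CG11436 (0.71), Mkp3 (0.65), 1 lower probe set of mod(mdg4) (0.65) and Spn42Da (0.57) also rose by limma, with adjusted p-values of 3.57e-05, 6.89e-05, 0.0031 and 5.69e-06 in that order. Gal, Bulli and Mfap1 did not pass the test, with differences of -0.18, -0.06 and 0.07.

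**Figure D4:**
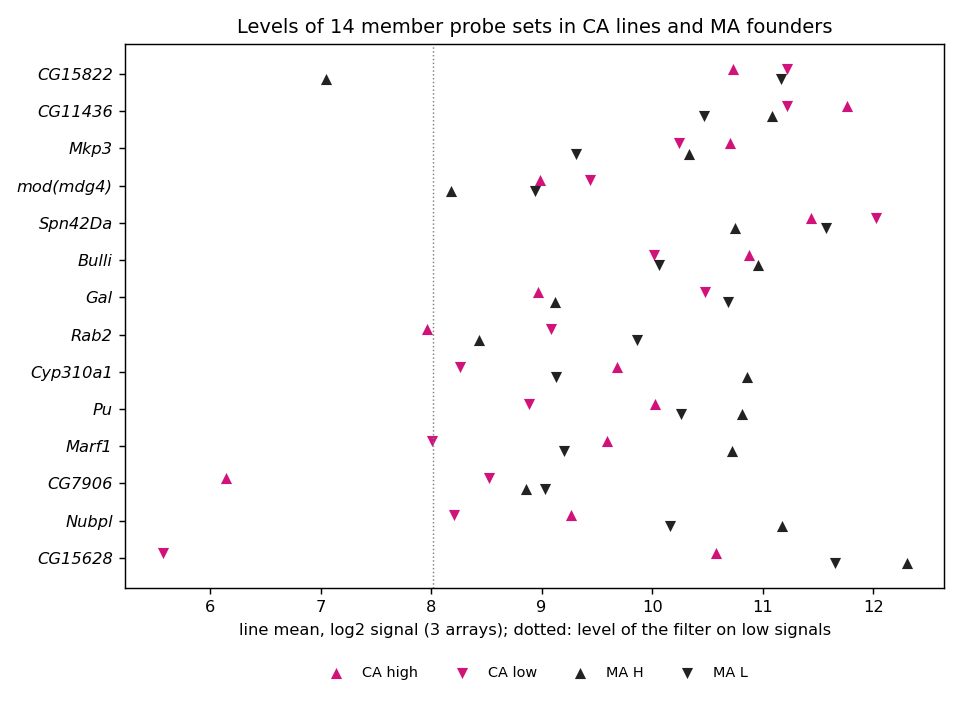
Line mean log2 signal of 14 member probe sets in the CA lines (pink) and the MA founders (black), with upward triangles for high lines and downward triangles for low lines. CG15628, Nubpl, CG7906, Marf1, Pu, Cyp310a1 and Rab2 sit further left in CA than in founders of the same direction, as do Gal and Bulli by little. CG15628 and Marf1 in the CA low line, CG7906 and Rab2 in the CA high line and CG15822 in founder H fall below the dotted filter level.

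Among the reselected pairs, the mean of the high and low line was tested in the same way. The level differed between pairs A to D for 42 members (35%, background 24.4%) by limma's moderated F test. This excess depended on the scaling between arrays. With arrays centred on their medians, 53 of 120 members and 4125 of 9385 tested probe sets were called, which are nearly equal shares. Some of the 42 restate a small difference within 1 pair, since a pair mean also moves where 1 line does. Probe set 1623281_s_at stood at 14.64 in pair B because line B1 was as high as the low lines, and Elp2 was at 11.70 in pair A because line A2 was as low as the high lines. lncRNA:CR42862 stood at 5.64 in pair A against 10.74, 9.47 and 11.25 in pairs B, C and D (adjusted p = 6.53e-09 by limma), so that its difference of -1.20 in pair A was between dim lines. Both lines of pair B were the highest of their direction among the reselected lines for grnd, which was at 13.17 in pair B against 12.41, 12.56 and 12.52 in pairs A, C and D (adjusted p = 6.44e-07 by limma). Marf1 passed with means from 9.32 to 10.22 (adjusted p = 0.0144 by limma), whereas Cyp310a1, Nubpl and Gal did not, with adjusted p-values of 0.78, 0.0973 and 0.708 by limma.

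Other probe sets of the same genes often did not share a member's pattern. Apart from mod(mdg4), member genes had 26 other tested probe sets, of which 18 had the member's sign in MA, 13 in CA and 9 in both. CG5326 matched in sign in both populations, with 1.40 and 0.92 in MA for its member and its other probe set, and 1.98 and 1.33 in CA. RapGAP1 showed a split, since another of its probe sets differed by -0.71 in MA and 0.64 in CA. Brighter probe sets of alph differed by -0.07 and -0.23 in MA and by -0.04 and -0.05 in CA. Those of lncRNA:CR42862 differed by -0.43 and -0.21 in MA and by 0.07 and 0.08 in CA. The other probe sets of ec had the member's sign in both populations, at -1.64 and -0.35 for one and -0.07 and -0.16 for the other, although the member's own CA difference of -0.47 ranged from -0.87 to -0.03 when 1 array was left out. Probe sets of 1 gene can read different transcripts, and 21 members were of the type that can also bind transcripts of related genes, Marf1 and orb2 among them.

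**Figure D5:**
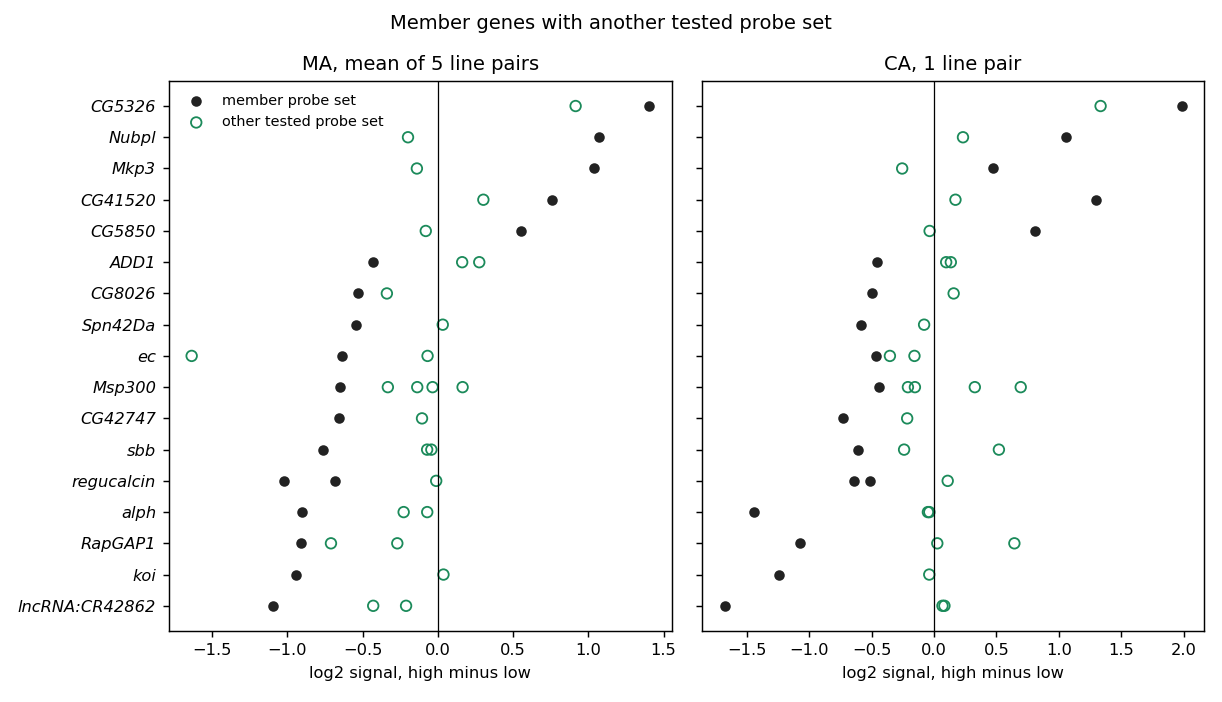
High-minus-low log2 signal in MA (left, mean of 5 pairs) and CA (right, 1 pair) for member probe sets (filled) and other tested probe sets (open) of the same gene, for 17 genes without mod(mdg4). Open points for Nubpl, Mkp3, alph and koi lie near 0, and that of CG5326 lies on the same side as its member in both populations.

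Along the chromosomes, the 101 member probe sets with a symbol lay on arm 2L in 23.8% of cases, 2R in 22.8%, 3L in 28.7%, 3R in 12.9% and X in 11.9%, beside 17.6%, 20%, 19.9%, 24.8% and 17.1% of tested probe sets with a known arm. None lay on chromosome 4, which held 0.651% of those tested. In the gene order of assembly Release 6 plus ISO1 MT, 13 pairs of member genes lay within 10 genes of each other, and 7 had the same direction. These were Nubpl with Marf1, slf with CG15628 and CG5149 with CG5171 on 2L, Epac with koi and koi with Spn42Da on 2R, and CG32026 with orb2 and CG13064 with CG13046 on 3L. With 1 array left out, the CA difference fell under 0.4 for CG32026 (down to 0.23), CG5171 (0.34), CG13046 (0.36) and orb2 (0.3992). Tested genes between them did not meet the rule. Between slf and CG15628, for example, CG15629 differed by -0.03 in MA and 0.48 in CA, and CG3225 by -0.0003 and -0.82. The other 6 pairs had opposite directions, such as CG42747, lower, with Bulli, higher, and Mkp3, higher, with Naxd, lower.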

How the data were processed

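The authors deposited 1 linear intensity per probe set and array, without detection calls, for 3 arrays of each of 12 lines. It was made with MAS5, per the submitters' processing notes, whose version is not given in the sources used here. Of 18952 probe sets, 183 controls were left out. Signals were taken to log2 with no pseudocount, and 9385 probe sets whose mean reached the level of 259.57 signal units were tested. The number of arrays limits the precision. Gene symbols came from the platform's annotation and gene order from a RefSeq gene table. The members, role groups and gene lists were chosen with earlier results of these data known.

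Levels were tested in R 4.3.3 with limma 3.58.1 (1 mean per line, intensity trend, 36 arrays, 24 residual degrees of freedom) and Benjamini-Hochberg adjustment over all 9385 at 0.05. The SE of each CA difference came from the same fit of 36 arrays. For gene lists, the MA difference was fitted on 10 line means with the pair as a block. Each listed gene was represented by its brightest probe set. Named genes were Marf1, Cyp310a1, the 12 in each direction with the largest smaller of MA and CA differences, members of lists, those at thresholds, the 5 largest called levels each way, genes with other probe sets or neighbours, and members described by role. Figures used Python 3.11.15 with matplotlib 3.10.9. The fits were tested on simulated data. Other scalings, filters, thresholds, variance models and left-out arrays or pairs were tried.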

Additional observations from a re-analysis of the deposited data

Results flagged for a closer look

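Among 54 groups of 5 MA line means looked at, 6 held 1 line whose gap to the nearest other line was over 0.71 of the group's range, and chance flags about 1 group in 20. On the log2 signal scale, CG13064 was at 12.833 in low line D2, against 11.245 to 11.438 in the other low lines. Mfap1 was at 11.38 in high line D1, against 11.84 to 11.956 in the other high lines, and at 11.221 in low line A2, against 10.824 to 10.901 in the other low lines. CG41520 was at 7.125 in low line A2, against 8.072 to 8.432 in the others. lncRNA:CR42862 was at 6.235 in low line A2, against 10.131 to 11.524 in the others. CG9662 was at 13.417 in high line D1, against 12.405 to 12.542 in the other high lines.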

How the results depend on the processing

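The number of members, 120, became 351 with no filter on low signals and 197 at a size threshold of 0.3. It was 107 to 129 with 1 array left out, 111 with arrays centred on their medians (99 shared), 117 after quantile normalization (105 shared) and 126 with the median of 3 arrays (94 shared). Of all 120, 73 left the group under at least 1 of 49 alternatives, Tret1-1 under 18, CG31373 and fbp under 17, kra under 12, orb2 under 11 and Msp300 under 10. Without replicate 1 of the CA high line, the CA difference was -0.13 for lncRNA:CR42862, -0.86 for koi and -0.63 for RapGAP1, and without replicate 3 it was -1.51 for RapGAP1. The 45 members called for CA minus founder level became 26 for CA low minus L alone, and 39 to 47 with 1 array left out. The 42 called between pairs A to D became 53 with arrays centred on their medians and 34 with no filter on low signals. Their number was 36 to 47 with 1 array left out. The distinct genes over all lists called in MA, 55, became 33 with no intensity trend, 26 without the founder pair, 28 without pair D, 174 in the model of 36 arrays with the replicate number as a block, and 42 to 61 with 1 array left out. Those called in CA, 78, became 44 with arrays centred on their medians, and 59 to 84 with 1 array left out. The causes were not tested. The replicate numbers did not pair the arrays: same-numbered arrays of a pair had deviations correlating from -0.06 to 0.19, over 0.1 in 3 of 18, and 14 of 36 arrays matched their own number best. With that number as a block, 45 members were called for CA minus founder level, 45 between pairs A to D and 82 list genes in CA.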
